A study of Bos indicus with 8 samples.

Results

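TXNIP, the thioredoxins and the peroxiredoxins were followed in bovine blastocysts that had been vitrified and warmed and in blastocysts that had not been cooled. The set comprised 10 genes, TXNIP, TXN, TXN2, TXNRD1 and PRDX1 to PRDX6, and every array probe that the platform annotation assigns to them. These were 27 of the 43794 gene probes on the array, and 23 of them were among the 36400 probes that passed the filter on low signal. Each of the 10 genes kept at least 1 such probe. The members were chosen by ratios measured on these same arrays, so their ratios of vitrified over control embryos are given below as a description, with no test.

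The embryos were Bos indicus blastocysts produced in vitro and graded 144 to 156 h after insemination. Vitrified embryos were cooled on a Cryotop, a thin film strip that holds a very small volume, in 15% ethylene glycol, 15% dimethylsulfoxide and 0.5 M sucrose. They spent at least 30 min in liquid nitrogen, were warmed, first in 1 M sucrose, and were then cultured for 4 h. Control embryos waited in the same holding medium on the bench during this procedure and received the same 4 h of culture. In both groups embryos of normal appearance after that culture were collected, so embryos that did not recover were not measured, and 10 embryos formed a pool. Amplified RNA of 1 vitrified and 1 control pool was hybridized in different dyes to each of 8 arrays on 2 slides. The arrays formed 4 neighbouring pairs with the dyes swapped, called pairs 1 and 2 (first slide) and pairs 3 and 4 (second slide) here.

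Thioredoxins are small proteins that reduce disulfide bonds in other proteins and are themselves returned to the reduced state by thioredoxin reductase with NADPH. Peroxiredoxins reduce hydrogen peroxide and other peroxides, and most of them take their electrons from thioredoxin. TXNIP, the thioredoxin-interacting protein, is an alpha-arrestin that binds reduced thioredoxin, limits its activity and lowers glucose uptake, and its transcription follows the supply of glucose, as known from human and mouse cells. Embryos in culture meet more oxygen than in the oviduct, and the thioredoxin system is one of the routes by which their cells handle peroxides.

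Median spot intensity ranged from 106 to 153 in the red and from 149 to 243 in the green channel, and 72.1% to 83.8% of gene probes were above background. The 2 arrays of a pair correlated across probes at a mean r of 0.837 once the dye effect was removed, and arrays of different pairs at a mean r of 0.0730, as a description over probes that share their arrays. Markers of the blastocyst's cells were present: the trophectoderm genes CDX2, KRT18 and GATA3, the inner cell mass genes POU5F1, NANOG and SOX2 and the primitive endoderm gene PDGFRA were above background on all 8 arrays in both channels. SOX17, of the primitive endoderm, passed the background limit on 7 of 8 vitrified and 8 of 8 control measurements, and LUM, a cumulus marker, on 8 of 8 for either group. HAS2, another cumulus gene, passed it on 4 of 8 vitrified and 5 of 8 control measurements. GATA6 had no probe by that symbol. In such pools, fewer cells of a type and less RNA per cell cannot be told apart.

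TXNIP had the lowest ratio of the 10 genes. Its brightest probe, EMBV3_31733, was above background in every channel of every array and gave log2 ratios of vitrified over control of -1.64, -0.70, -0.59 and -0.58 in pairs 1 to 4. The mean was -0.88 ± 0.51 (SD, n = 4 pairs), a 1.84-fold lower signal in vitrified embryos. The ratio lay below 0 in all 4 pairs and on all 8 arrays, so both dye orientations gave the same direction. Pair 1 stood apart from the other pairs, which lay within a narrow span, and without it the mean was -0.62. The first slide averaged -1.17 and the second -0.59. Of all 36400 tested probes, 13, or 0.0357%, had a lower mean ratio, as did 4 of 13515 named genes. TXNIP was chosen with these ratios known, so this rank is a description and no support.

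The levels behind these ratios spanned a wider range within each treatment than the difference between the treatments. On the normalized log2 intensity scale, TXNIP stood at 7.55, 9.65, 7.66 and 8.32 in the vitrified pools of pairs 1 to 4, against 9.19, 10.35, 8.25 and 8.91 in their control pools. Means were 8.29 ± 0.97 in vitrified and 9.17 ± 0.88 in control pools (SD, n = 4 each). The groups overlapped: each vitrified pool was below the control pool of its own pair, but the vitrified pool of pair 2 was above the control pools of pairs 1, 3 and 4. Highest and lowest pool differed 4.31-fold among vitrified and 4.29-fold among control embryos. In linear units before normalization, the TXNIP spot had an intensity of 190 to 899 (median 315) in vitrified and 300 to 1779 (median 559) in control channels of the 8 arrays.

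**Figure D1:**
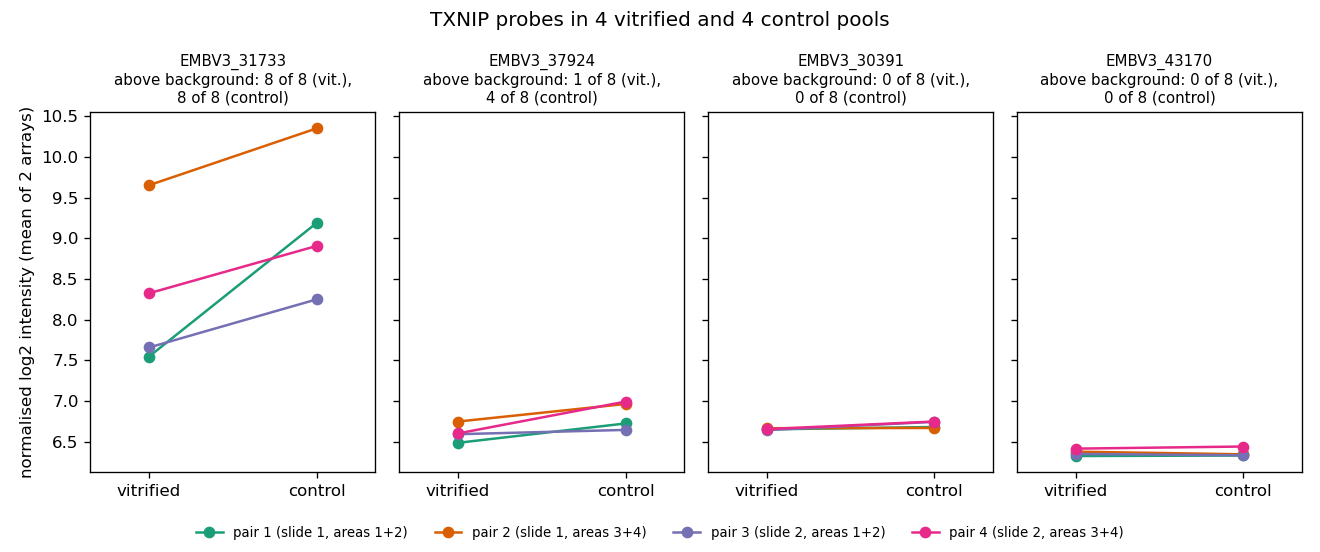
Normalized log2 intensity (vertical axis) of the 4 TXNIP probes in vitrified and control pools, with 1 line for each of the 4 dye-swap pairs and each point the mean of 2 arrays. In the probe at the left every line is lower at its vitrified end, pair 2 is highest in both groups, and the other 3 probes lie near background.

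TXNIP also varied widely among control pools, whose levels enter the ratios by which the genes were chosen, so the following is a description. Its SD of 0.878 over the 4 control pools stood at the 99.9th percentile of all tested probes, with 42 probes (0.115%) more variable. The median probe had an SD of 0.103 over vitrified and 0.104 over control pools. The high value rested largely on pair 2, and without that pair the SD over control pools was 0.482. No other member came near it: the SD over control pools of the other 22 tested member probes did not exceed 0.347, the value of a PRDX6 probe.

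The other 3 probes carry the TXNIP symbol. EMBV3_37924 gave ratios of -0.24, -0.22, -0.05 and -0.39, a mean of -0.22 ± 0.14 (SD, n = 4 pairs), but passed the background limit in 1 of 8 vitrified and 4 of 8 control measurements. It met the filter on low signal through the control measurements alone, where it was higher, so its direction is not read as support. A dim probe gives ratios closer to 0, and the size of this one was not set against that of the bright probe. EMBV3_30391 and EMBV3_43170 were above background on no array in either channel, and no ratio is read from them. The TXNIP result therefore rests on 1 probe.

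Over all 36400 tested probes, limma called 0 probes at an adjusted p under 0.05, which is 0%, with a smallest adjusted p of 0.465. Without adjustment, 2756 probes had a p under 0.05, of which 1182 were higher and 1574 lower in vitrified embryos. A ratio below 0 in all 4 pairs was seen in 3 of the 23 member probes, against 7.4% of all tested probes, and a ratio above 0 in all 4 pairs in 2 of 23, against 8.34%. In 0 of 23 member probes did the 4 vitrified levels all lie below the 4 control levels, against 1.28% of all tested probes. These counts use the contrast by which the members were chosen and nothing is read from them.

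With 1 probe for each gene, the tested one of highest intensity, the 10 genes had a median log2 ratio of 0.0030, beside 0.0032 over all tested probes. Below 0 in all 4 pairs were TXNIP and PRDX4, and above 0 in all 4 were TXN2 and PRDX5. TXNIP kept this in all 4 versions of the data that were compared: loess with and without background correction, median centring, and the authors' deposited table. TXN2, PRDX4 and PRDX5 each had pairs of both signs under median centring and in the authors' deposited table, so no direction is given for them.

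**Figure D2:**
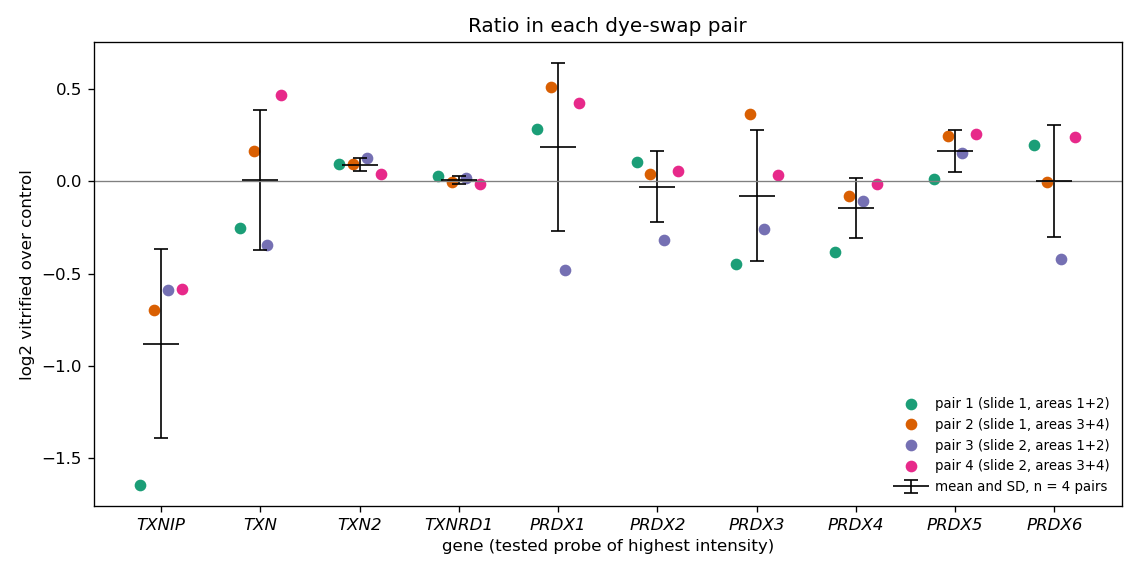
Log2 ratio of vitrified over control (vertical axis) of 1 probe for each of the 10 genes (horizontal axis), with a point per dye-swap pair and the mean and SD over 4 pairs. TXNIP lies below 0 in every pair, at -1.64 to -0.58, while the pairs of TXN, PRDX1, PRDX2, PRDX3 and PRDX6 fall on both sides of 0.

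TXN, the cytosolic thioredoxin that TXNIP binds, was measured by 1 bright probe. It stood at 12.75, 12.93, 12.53 and 13.04 in the vitrified pools of pairs 1 to 4, against 13.01, 12.77, 12.87 and 12.58 in the control pools. The groups overlapped fully, with the vitrified pool lower in pairs 1 and 3 and higher in pairs 2 and 4. The ratios were -0.26, 0.16, -0.35 and 0.47, and the mean of 0.01 ± 0.38 (SD, n = 4 pairs) was far inside the spread between pairs. TXN thus did not share the direction of TXNIP in pairs 2 and 4.

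TXN2, the thioredoxin of mitochondria, had 6 probes, all above background on all arrays, with mean ratios from -0.12 to 0.09. The brightest, EMBV3_13134, gave 0.09, 0.09, 0.13 and 0.04, a mean of 0.09 ± 0.04 (SD, n = 4 pairs). This small spread hid a large effect of the dye. On the 4 arrays with the vitrified pool in Cy5 the ratio was -0.91 to -0.64, and on the 4 with it in Cy3 it was 0.88 to 1.10. EMBV3_34526 behaved the same way, at -0.88 to -0.70 with the vitrified pool in Cy5 and 0.81 to 1.03 in Cy3. Each pair holds both orientations, so that this effect cancels in the pair means. An orientation effect above 0.58 in size occurred in 2 of 23 member probes (8.70%), both of TXN2, and in 2.02% of all tested probes. Among tested probes with a mean log2 intensity of at least 10 the share was 3.68%. TXN2 EMBV3_27878 and PRDX2 EMBV3_24618 came close to the limit, with dye effects (red over green) of -0.50 and -0.51.

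**Figure D3:**
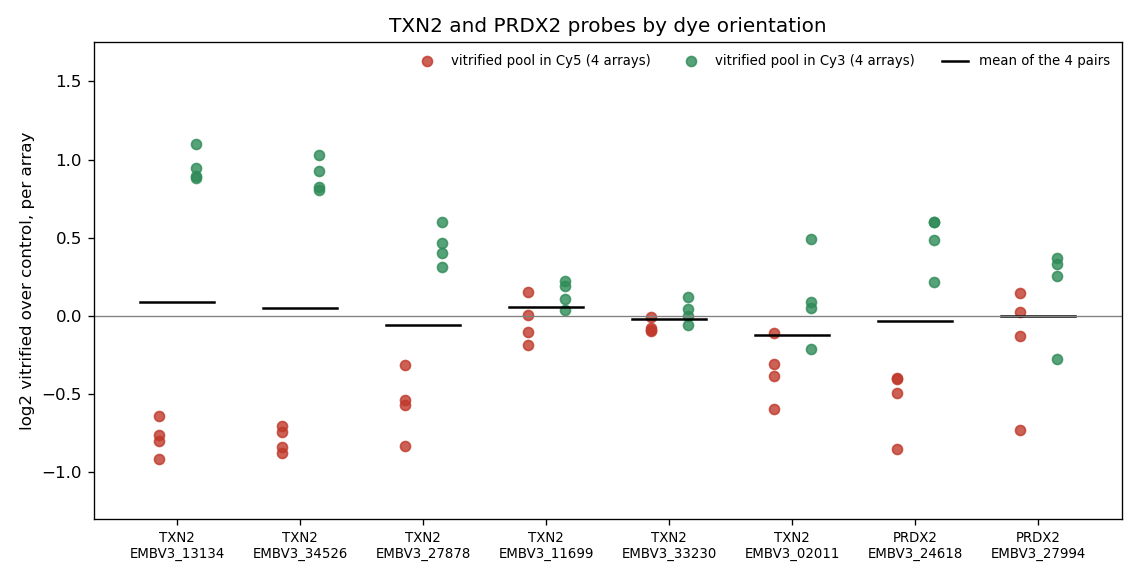
Log2 ratio of vitrified over control on each array (vertical axis) for the TXN2 and PRDX2 probes, with the vitrified pool in Cy5 (red points) or in Cy3 (green points) and the mean of the 4 pairs as a line. The first 2 TXN2 probes lie between -0.91 and -0.64 with the vitrified pool in Cy5 and between 0.81 and 1.10 with it in Cy3, while their pair means stay near 0. PRDX2 EMBV3_24618 also splits by dye, at -0.85 to -0.40 in Cy5 and 0.22 to 0.60 in Cy3.

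TXNRD1, the cytosolic reductase that restores thioredoxin, had the narrowest spread between pairs in the set under loess. Its bright probe, EMBV3_32822, stood at 15.11, 15.09, 15.00 and 15.00 in the vitrified pools, against 15.08, 15.10, 14.98 and 15.02 in the control pools. The pools of both groups lay within a narrow common range, and the mean ratio was 0.01 ± 0.02 (SD, n = 4 pairs), a spread at the 1.69th percentile of all tested probes. This probe had 66.2% to 93.3% of the intensity of the brightest spot in its channel on every array, so that it was close to the upper end of the scale, where differences can be compressed. Under median centring its ratio was -0.08 ± 0.29, a wider spread than the 0.21 of TXN2. In the authors' deposited table its SD was 0.054, against 0.028 for PRDX2, so the narrowest spread holds for loess and not for these versions. The other TXNRD1 probe, EMBV3_02308, was above background on 2 of 8 arrays in either channel and was not tested.

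PRDX1, an abundant cytosolic peroxiredoxin, stood at 13.64, 13.75, 13.31 and 13.51 in the vitrified pools, against 13.36, 13.24, 13.79 and 13.08 in the control pools. The vitrified pool was the higher one in pairs 1, 2 and 4 and the lower one in pair 3, where the control pool was the highest of all 8. Its ratios were 0.28, 0.51, -0.48 and 0.42, with a mean of 0.18 ± 0.45 (SD, n = 4 pairs), which does not exceed the spread between pairs.

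PRDX2, the other typical cytosolic peroxiredoxin, showed the same break in pair 3 on both of its probes. EMBV3_27994 stood at 11.83, 11.78, 11.56 and 11.38 in the vitrified pools, against 11.63, 11.58, 12.06 and 11.28 in the control pools, and again the control pool of pair 3 was the highest of the 8. Its ratios were 0.20, 0.20, -0.50 and 0.10 (mean 0.00 ± 0.34, SD, n = 4 pairs), and those of the brighter EMBV3_24618 were 0.10, 0.04, -0.32 and 0.05 (mean -0.03 ± 0.19). In the authors' deposited table, EMBV3_27994 was at -0.77 in pair 3 but EMBV3_24618 at -0.08, so the 2 probes did not agree there.

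PRDX6, which also acts as a phospholipase and is recycled through glutathione rather than thioredoxin, had 5 tested probes with mean ratios from -0.13 to 0.00. EMBV3_28741, the brightest, stood at 14.50, 14.36, 14.05 and 14.21 in the vitrified pools, against 14.30, 14.37, 14.47 and 13.97 in the control pools. As with PRDX1 and PRDX2, the control pool exceeded the vitrified pool most in pair 3. The 5 probes gave -0.42, -0.48, -0.48, -0.76 and -0.54 in that pair.

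Set side by side, all 8 probes of PRDX1, PRDX2 and PRDX6 were below -0.3 in pair 3, with a median of -0.48 and a range of -0.76 to -0.32. In pairs 1, 2 and 4 their medians were 0.17, 0.03 and 0.18, and 1, 1 and 0 of the 8 were below 0. Pair 3 was low for much of the set: 12 of the 13 tested peroxiredoxin probes and 19 of the 23 tested member probes (82.6%) were below 0 there, and 43.5% of member probes, TXN and TXNIP among them, were below -0.3. Of all tested probes in pair 3, 48.1% were below 0 and 6.18% below -0.3; of the 5738 tested probes with a mean log2 intensity of at least 10, 14.4% were below -0.3. Under median centring the 8 probes had a median of -0.89 in pair 3, and in the authors' deposited table one of -0.56 with 7 of 8 below -0.3. Median centring lowered other bright members in pair 3 as well, so the larger drop is not particular to these probes. TXNRD1 went from 0.02 to -0.44, TXN from -0.35 to -0.76 and TXN2 from 0.13 to -0.23. These 3 genes were grouped after their values had been seen, probes of 1 gene share their transcript, and the grouping was not tested.

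**Figure D4:**
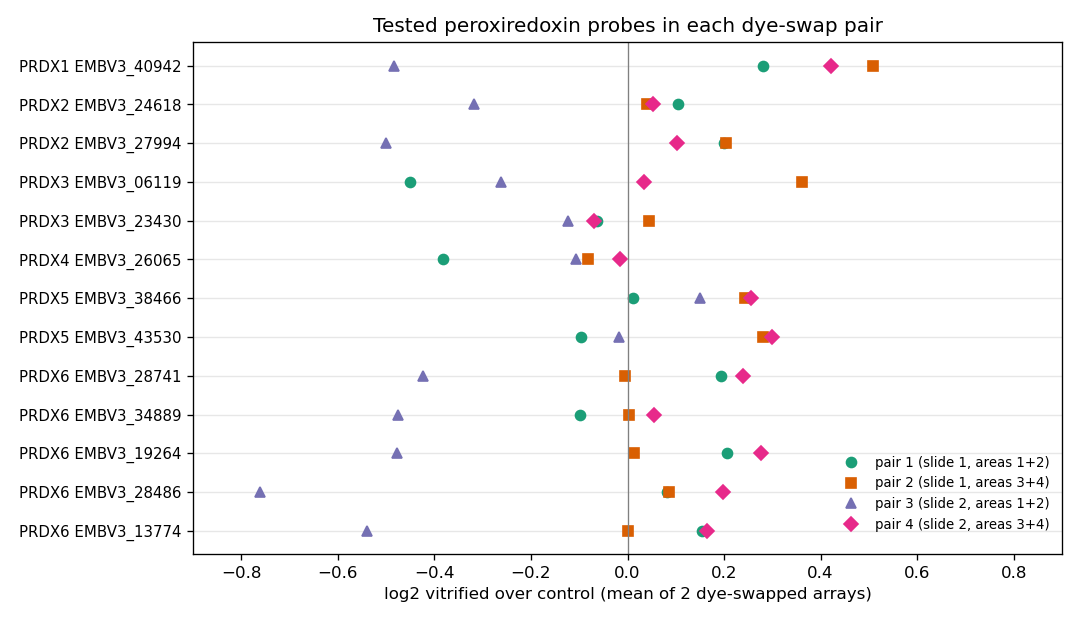
Log2 ratio of vitrified over control (horizontal axis) of the 13 tested peroxiredoxin probes in each dye-swap pair, each symbol the mean of 2 arrays. The triangles of pair 3 lie left of -0.3 for all 8 probes of PRDX1, PRDX2 and PRDX6, to the left of every other pair.

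PRDX3, the peroxiredoxin of mitochondria, stood at 12.42, 12.66, 12.40 and 12.71 in the vitrified pools, against 12.87, 12.30, 12.67 and 12.68 in the control pools by its brightest probe. Vitrified pools were lower in pairs 1 and 3, higher in pair 2 and close in pair 4. The mean ratio was -0.08 ± 0.36 (SD, n = 4 pairs). A second, dimmer probe, above background on 6 of 8 arrays in either channel, averaged -0.05 ± 0.07, and the third probe was above background on none.

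PRDX4, which works in the endoplasmic reticulum and lies on chromosome X in the RefSeq gene table, stood at 11.62, 12.28, 11.87 and 12.06 in the vitrified pools, against 12.01, 12.36, 11.98 and 12.08 in the control pools. Ratios were -0.38, -0.08, -0.11 and -0.02, a mean of -0.15 ± 0.16 (SD, n = 4 pairs) that was carried mostly by pair 1, and the levels overlapped. The authors' deposited table has -0.34, 0.17, 0.10 and -0.20 for it. XIST, the RNA that silences an X chromosome in female cells, looked up after the values were seen, had ratios of -1.22, -1.55, -0.58 and -0.15 in the same pairs, and a part of the sex of the pooled embryos in the PRDX4 value was not tested.

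PRDX5, found in mitochondria, peroxisomes and the cytosol, stood at 10.78, 10.97, 10.97 and 10.98 in the vitrified pools, against 10.77, 10.73, 10.82 and 10.72 in the control pools by EMBV3_38466. The lowest vitrified pool lay just below the highest control pool, and the other vitrified pools were above all control pools. The ratios were 0.01, 0.24, 0.15 and 0.26, with a mean of 0.16 ± 0.11 (SD, n = 4 pairs), above 0 on 7 of 8 arrays. Its second probe of near equal brightness, EMBV3_43530, gave -0.10, 0.28, -0.02 and 0.30, a mean of 0.12 ± 0.20, so both probes were highest in pairs 2 and 4. Neither was lowest in pair 3 under loess, but under median centring EMBV3_38466 was at -0.23 in that pair, its lowest, where PRDX4 (-0.51) and TXNRD1 (-0.44) were low as well.

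The members varied more between pairs than most of the array. The median SD of the ratio over the 4 pairs was 0.248 for the 10 genes and 0.194 for the 23 tested member probes, against 0.121 over all tested probes. Bright probes vary more in general, and among the 5738 tested probes with a mean log2 intensity of at least 10 the median was 0.221, close to that of the 10 genes. Pairs 1 and 3 carried much of it: the median of the 10 genes was 0.137 without pair 1 and 0.134 without pair 3.

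The levels of cell type markers also differed from pair to pair. Of 19 tested trophectoderm markers, 17 had a mean ratio above 0, and the list's median was 0.35, 0.34, -0.04 and 0.43 in pairs 1 to 4, lowest in pair 3 like the 8 probes of PRDX1, PRDX2 and PRDX6. Its summed level ranged from 163680 to 180510 in vitrified and from 144608 to 164573 in control pools. Of 13 inner cell mass markers 2 were above 0, with medians of -0.19, -0.02, 0.04 and -0.34 in the 4 pairs and sums of 41056 to 46990 in vitrified and 41099 to 56889 in control pools.

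Of 9 tested primitive endoderm markers 2 were above 0, with medians of -0.23, -0.15, -0.06 and -0.31 and sums of 7842 to 9697 in vitrified and 9867 to 11723 in control pools. Among 11 cumulus markers 5 were above 0, with a median of -0.02 over the pairs and sums of 2545 to 4733 in vitrified and 2790 to 3593 in control pools. KRT18, a keratin of the trophectoderm, had ratios of 0.01, 1.11, -0.26 and 1.40 in pairs 1 to 4. CDX2 averaged 0.10 ± 0.26 and GATA3 0.05 ± 0.16 (SD, n = 4 pairs). NANOG, a pluripotency factor, averaged -0.49 ± 0.25, but SOX2 -0.12 ± 0.23 and POU5F1 0.08 ± 0.09. PDGFRA averaged -0.86 ± 0.43 and lay below 0 in all 4 pairs, while SOX17 averaged 0.04 ± 0.06. LUM was at -0.60 ± 1.30 and HAS2 at -0.02 ± 0.10. A part of these cell types in the TXNIP and peroxiredoxin values was not tested.

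Other genes of the thioredoxin system were taken from lists of 90 symbols, of which 84 were on the array and 80 were tested. In limma's test over all probes 0 of the 80 were called higher and 0 lower in vitrified embryos, with a smallest adjusted p of 0.465. By mean ratio, 50 lay above 0 and 30 below, with a median of 0.02 beside 0.0032 over all tested probes. Median centring turned this split to 43 above and 37 below, and the authors' deposited table to 44 and 36. A ratio of the same sign in all 4 pairs was seen in 14 of them, 7 lower and 7 higher in vitrified embryos. Over the whole array, 994 and 1226 of 13515 named genes were lower and higher in all 4 pairs, a share close to that of these lists.

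Among reductases and genes of selenoprotein synthesis, 5 of 7 lay above 0, with a median of 0.0060, but 3 of 7 did so under median centring and in the authors' deposited table. TXNRD2, the mitochondrial reductase, was at 0.01 ± 0.39 (SD, n = 4 pairs). SEPSECS, which makes the selenocysteine that reductases need, was at 0.04 ± 0.01, a shift that its narrow spread did not bring past the test (limma, adjusted p = 0.857). Thioredoxin-like genes had 7 of 9 above 0 and a median of 0.04, which median centring moved to 4 of 9 and a median of -0.0079.

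Thioredoxin-fold proteins of the endoplasmic reticulum, which form disulfide bonds in secreted proteins, were listed with ERO1L, ERO1LB and VKORC1, which lack that fold. These were at 0.18, 0.31 and 0.06. The whole list had 18 of 22 above 0 and a median of 0.08. The count was 17 of 22 under median centring and 13 of 22 in the authors' deposited table. P4HB, the classical protein disulfide isomerase, had ratios of 0.17, 0.59, 0.45 and 0.37, a mean of 0.40 ± 0.17 (SD, n = 4 pairs), and did not pass (limma, adjusted p = 0.471). PDIA6, a related isomerase, was at 0.17 ± 0.15 with its other probes at 0.18 to 0.22 (adjusted p = 0.665 in limma), on a spot near the upper end of the scale.

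Glutaredoxins, which use glutathione for the same kind of reaction, split in direction. GLRX2, a mitochondrial form, had ratios of -0.41, -0.19, -0.23 and -0.35 and a mean of -0.29 ± 0.10 (SD, n = 4 pairs). GLRX5, also mitochondrial, was at 0.03 ± 0.27. GLRX3, an iron-sulfur cluster protein, was at 0.23 ± 0.16, with its other probe at 0.14. Neither passed, with adjusted p-values of 0.465 and 0.570 in limma for GLRX2 and GLRX3.

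The list of ribonucleotide and methionine sulfoxide reductases, which take electrons from thioredoxin, together with sulfiredoxin, the sestrins and the PAPS synthases, had 7 of 13 above 0, and 6 of 13 under median centring. RRM2, a subunit of ribonucleotide reductase, was at 0.40 ± 0.35 by its brightest probe (limma, adjusted p = 0.643), but its other probes lay between -0.04 and -0.02. RRM1, the partner subunit, was at -0.18 ± 0.05. SEPX1, a methionine sulfoxide reductase, was at 0.23 ± 0.19 and its other probe at 0.28 (limma, adjusted p = 0.643). SRXN1, sulfiredoxin, which repairs over-oxidized peroxiredoxins, was at -0.08 ± 0.36.

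No relative or regulator of TXNIP was called. The 4 tested alpha-arrestins all had mean ratios above 0 (3 of 4 without background correction), with a median of 0.08. ARRDC4, which shares the control by glucose with TXNIP, was at 0.01 ± 0.08, with its other probe at -0.11. Even its brighter probe was dim, at a mean log2 intensity of 7.18, so no lack of change is read from this ratio. ARRDC3 was at 0.07 ± 0.20. The transcription factors that act on the TXNIP gene in response to glucose were at 0.23 ± 0.29 for MLX (other probe 0.01), -0.02 ± 0.15 for MLXIP and -0.03 ± 0.18 for MLXIPL (SD, n = 4 pairs), and the 2 named last were dim.

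Over the 21 tested regulators and partners, 6 lay above 0 and 15 below, with a median of -0.03, and the count was 7 and 14 under median centring. ITCH, the ubiquitin ligase that marks TXNIP for degradation, had ratios of -0.28, -0.14, -0.45 and -0.35 (mean -0.30 ± 0.13, adjusted p = 0.493 in limma), with its other probes at -0.02 to 0.07. SLC2A1, the glucose transporter that TXNIP removes from the cell surface, was at -0.20 ± 0.12 (adjusted p = 0.555 in limma), with its other probe at -0.03. KPNA2, an importin that carries TXNIP into the nucleus, was at -0.17 ± 0.04. Genes without an adjusted p here did not pass either.

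**Figure D5:**
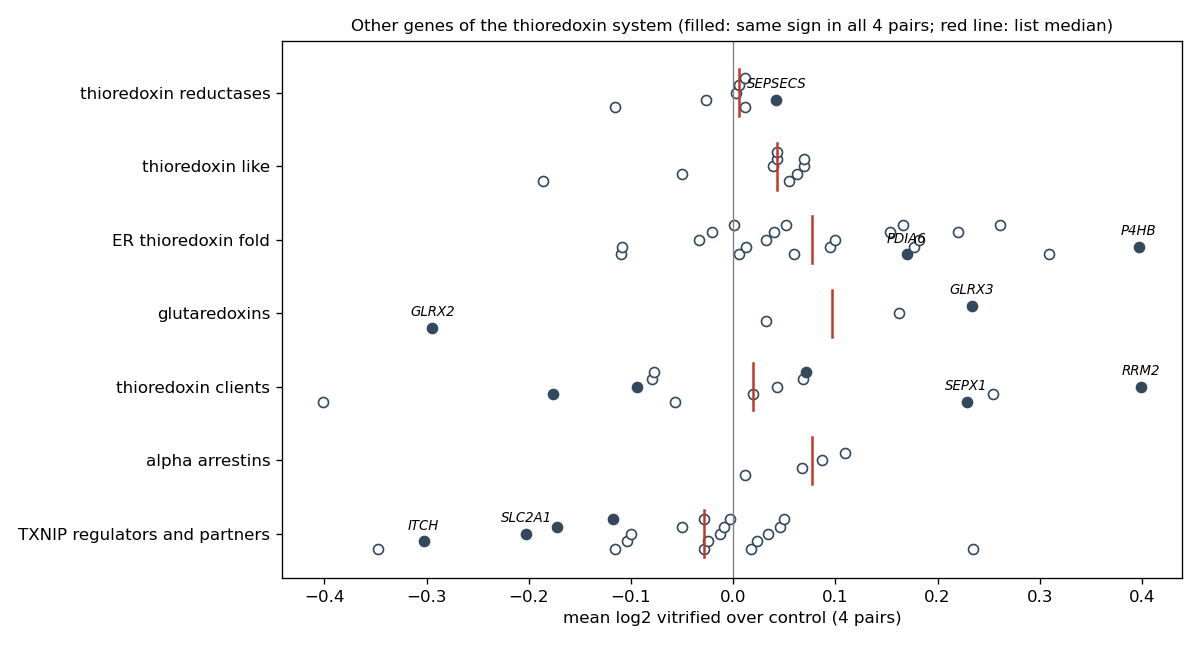
Mean log2 ratio of vitrified over control over 4 pairs (horizontal axis) of the 80 other tested genes of the thioredoxin system, by list; filled points had the same sign in all 4 pairs and red lines mark list medians. All list medians lie between -0.03 and 0.10, and no gene reaches the -0.88 of TXNIP.

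The genes whose ratio followed that of TXNIP most closely were sought among 776 named genes with a mean ratio of at least 0.3 in size. Likeness was Pearson's r with TXNIP over the 8 arrays after removal of the dye effect, and these arrays are 4 pairs and not 8 independent samples. RAD54B, a DNA repair helicase, led at r = 0.958 with a mean ratio of -0.31 ± 0.17 (SD, n = 4 pairs), followed by RG9MTD1, a subunit of the mitochondrial tRNA-processing enzyme, at r = 0.951 and -0.43 ± 0.26. MGC152340 was at r = 0.950 and -0.53 ± 0.13, and SH3BGRL, a small protein of the thioredoxin fold, at r = 0.935 and -0.66 ± 0.53. LOC781841, at r = 0.926, had -2.21 in pair 1 and at most 0.20 in the others. All 5 had their lowest ratio in pair 1, as TXNIP did, and the ranking leans on that pair. Over the 6 arrays without it, a setting chosen after seeing the data, r was 0.735 for RAD54B and 0.686 for RG9MTD1. It was 0.967 for MGC152340, 0.549 for SH3BGRL and 0.495 for LOC781841. In these 6 arrays the TXNIP pair means lay close together, at -0.70 to -0.58, while the 2 arrays of pair 3 gave -0.23 and -0.95. These r values thus rest largely on differences between arrays of the same pools, and no likeness between pools is read from them.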

How the data were processed

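The deposited scanner files hold spot and local background intensity for both channels, per the file headers, neither corrected nor normalized. Neither the scanning software nor how the value table was normalized is given in the sources used here. That table, deposited by the authors, has a normalized log2 value for each probe on each array, and against the scanner ratios it gave r of 0.720 to 0.858 and slopes of 0.940 to 1.33 across probes. It was therefore read as log2 of vitrified over control and served as an alternative. The medians of its columns, in area order, were 0.0031, -0.0012, -0.00032 and 0.0035 for slide 1. For slide 2 they were -0.0098, 0.00064, -0.010 and 0.010.

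In R 4.3.3 and limma 3.58.1, normexp with an offset of 50 corrected the mean intensities for background, and loess normalized each array, giving no weight to 1418 control spots. Levels were also scaled between arrays by quantiles of the mean intensity. A spot was above background if its log2 signal exceeded the median plus 2 median absolute deviations of the 153 negative controls in its channel. Probes above background on at least 4 of 8 arrays in the vitrified or control channel were tested, unless they lacked a value in a pair.

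The series' design gives 4 pools per group and a dye swap, and neighbouring areas were taken as dye swaps because their arrays deviated together (lowest r within a pair 0.830, highest between pairs 0.315). The labels instead number the 4 areas of each slide as biological replicates 1 to 4, so that a number recurs once on each slide in the same dye orientation. Both units were fitted. The 2 arrays of a pair were averaged, and limma tested the 4 pair means against 0 with Benjamini-Hochberg adjustment over all tested probes. The labels call the replicates biological. Nothing given says whether pools came from separate cultures, so p-values measure only the spread between these pools. The number of arrays limits the precision. The limma procedure was tested on simulated data with changes larger than any mean ratio measured here. That run does not tell how often changes of the measured size would be called.

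Probe names come from the platform annotation, which can be old. It gives a symbol to 21790 probes, covering 15229 symbols. The assembly NIAB-ARS_B.indTharparkar_mat_pri_1.0 served for chromosome assignment, with no coordinates. All member probes are named. The brightest tested probe stands for a gene. Of each other list, up to 2 genes with the largest mean ratio in size among those with 1 sign in all pairs are named, and further list genes were added for their known role in the TXNIP and thioredoxin pathway after their values were seen. The members and lists were chosen with earlier results of these data known.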

Additional observations from a re-analysis of the deposited data

Results flagged for a closer look

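Of 23 tested member probes, 4 had 1 pair whose log2 ratio of vitrified over control lay far from the other 3 by Dixon's criterion. The nominal rate of that criterion is about 1 in 20, or 1.15 of 23. Its rate over all tested probes is not given here, so the count is not read as an excess. The members were chosen by these ratios, so the count is a description and no test of them. TXNIP, EMBV3_31733, was at -1.64 in pair 1. PRDX2 was at -0.32 on EMBV3_24618 and at -0.50 on EMBV3_27994 in pair 3. PRDX6, EMBV3_28486, was at -0.76 in pair 3. Probes of the same gene and pair are not independent, so these are not 4 separate events.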

How the results depend on the processing

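Across 15 alternatives TXNIP stayed below 0. Its mean was -0.87 under median centring, -0.81 without background correction and -0.93 in the authors' deposited table. It was -0.98 to -0.62 leaving out a pair and -1.05 to -0.70 leaving out a labelled replicate number. All 8 arrays were below 0, so settings that only left out or regrouped arrays could not bring the mean above 0. Averaging the arrays of each labelled replicate number in place of the neighbouring pairs gives the same mean by arithmetic, -0.88. With that unit limma called 0 probes (lowest adjusted p 0.106, 5277 under 0.05 unadjusted). The call of 0 probes by limma changed in 1 setting, with 588 called when the 8 arrays were counted singly, which counts each pool more than once. It was 0 with slide as a block, with no filter, with the strictest filter, under median centring, without background correction, in the deposited table and leaving out each pair, with 1935 to 3410 at an unadjusted p under 0.05. Leaving out a pair or using 1 slide cannot move a mean of 4 pairs by 1 SD. Among the other 9 genes, values that moved by 1 SD or more were those of TXN2 (0.01 under median centring, 0.04 deposited) and TXNRD1 (-0.08 and 0.03 in those settings, and -0.01 and 0.03 without labelled replicate numbers 1 and 3), whose SDs are small. The median of the 80 other thioredoxin-system genes was 0.0090 under median centring and 0.038 deposited, against 0.022. The SD of TXNIP over control pools was 0.482 to 1.08 leaving out a pair, and 0.821 without scaling between arrays, a setting chosen after seeing the data. Of the 27 member probes 4 were too dim to be tested, and TXNRD1 was near the upper end of the scale.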
